A study of Mus musculus with 4 samples.

Results

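Small nucleolar RNAs (snoRNAs) and small Cajal body RNAs (scaRNAs) are the non-coding RNAs described here, as they appear among AGO2 eCLIP reads of newborn mouse brain. Members were taken as the called regions whose midpoint lay, on the same strand, in a gene of GENCODE type snoRNA or scaRNA on mm10, with an imprinted non-coding locus on chromosome 12 left out. By this rule 212 of 46860 clusters of the wild-type library, 434 of 86106 clusters of the knockout-labelled library and 212 of 46862 regions of the table that compares the 2 IPs were members. They lay in 152, 243 and 152 genes, and 248 of 1530 annotated gene loci had a region in any of the tables.

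AGO2 with its bound RNA was immunoprecipitated (IP) from newborn (postnatal day 0) C57BL/6 whole brains that had been flash frozen. Of the 4 libraries, 1 AGO2 IP and 1 input came from wild type and 1 of each from brain labelled FMR1 ko. The labels give neither the knockout allele nor the number of brains behind a library. Exons of Fmr1 held 2 clusters in the wild-type library (4 and 5 IP reads) and 5 in the other (2 to 11 IP reads), so its RNA was seen in both and does not check the label; the second pair is called knockout-labelled. With 1 IP and 1 input per genotype there are no replicates: every comparison below is between libraries, intervals are exact 95% binomial intervals that cover counting error only, and no test across animals could be made. Depth ratios recovered from the scores were 6.34 for wild-type input over its IP, 1.92 for the knockout-labelled input over its IP, and 2.28 for the knockout-labelled over the wild-type IP. As a check of the tissue, 6 of 6 neuronal marker genes had clusters in both libraries (105 and 125 clusters), while the liver genes Alb and Apoa1 together had 1 cluster in wild type against 0 in the knockout-labelled library. In these whole-tissue libraries, fewer cells of a type and less RNA per cell cannot be told apart.

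C/D box snoRNAs are short RNAs that fold with the proteins fibrillarin, NOP56, NOP58 and SNU13 and guide 2'-O-methylation, mainly of ribosomal RNA. H/ACA box snoRNAs fold into a pair of hairpins, bind dyskerin, GAR1, NHP2 and NOP10, and guide pseudouridylation. ScaRNAs carry either or both kinds of box and guide the same changes on spliceosomal snRNAs in Cajal bodies. A few C/D box RNAs, such as U3, U8 and U13, act in ribosomal RNA processing or acetylation instead. Most are cut out of introns of host genes, and pieces of some snoRNAs are known to be loaded into Argonaute proteins like miRNAs.

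The genes below are those on which the results turn, 4 of the C/D box class, 2 of the H/ACA class, and 2 annotated as scaRNA. They are shown to let the position of the AGO2 cluster be seen: the capitals are the bases of the wild-type cluster with most IP reads (of clusters with equal reads, the one with the highest log2), the letters run 5′ to 3′ on the gene's strand and come from the RefSeq sequence of GRCm38.p6 (mm10).
Snord88a: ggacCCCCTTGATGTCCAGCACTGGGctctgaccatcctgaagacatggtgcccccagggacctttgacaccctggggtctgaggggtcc
Snord83b: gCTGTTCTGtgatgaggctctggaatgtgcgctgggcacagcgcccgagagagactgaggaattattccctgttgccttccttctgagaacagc
Snord118: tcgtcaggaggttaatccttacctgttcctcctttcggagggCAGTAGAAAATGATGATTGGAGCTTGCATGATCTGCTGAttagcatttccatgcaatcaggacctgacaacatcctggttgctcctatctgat
Snord14d: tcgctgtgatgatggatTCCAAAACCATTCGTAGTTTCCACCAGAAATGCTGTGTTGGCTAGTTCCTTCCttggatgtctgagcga
Snora61: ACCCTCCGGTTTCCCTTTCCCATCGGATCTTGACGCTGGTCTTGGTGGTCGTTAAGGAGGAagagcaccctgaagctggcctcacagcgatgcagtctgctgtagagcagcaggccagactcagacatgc
Snora44: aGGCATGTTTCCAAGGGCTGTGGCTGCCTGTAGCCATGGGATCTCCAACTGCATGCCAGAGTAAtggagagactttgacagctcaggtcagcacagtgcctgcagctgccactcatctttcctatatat
Scarna2: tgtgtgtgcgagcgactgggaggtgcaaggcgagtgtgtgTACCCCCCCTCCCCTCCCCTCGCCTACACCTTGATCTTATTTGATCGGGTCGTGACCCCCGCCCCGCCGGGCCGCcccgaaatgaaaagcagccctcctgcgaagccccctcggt
Mir1839: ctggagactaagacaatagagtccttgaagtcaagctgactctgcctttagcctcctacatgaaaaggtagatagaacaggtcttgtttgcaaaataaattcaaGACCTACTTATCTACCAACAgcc
Snord88a (chr7:44250135-44250224, plus strand) lies within an exon of an annotated transcript of the protein-coding gene 2410002F23Rik, and its cluster covered bases 5 to 26 of 90. Snord83b (chr15:80078498-80078591, minus strand) lies in an intron of the ribosomal protein gene Rpl3, and Snord14d (chr9:40803995-40804080, plus strand) within an exon of a transcript of the chaperone gene Hspa8. Snord118 (chr11:69073427-69073561, plus strand), the U8 RNA, has no annotated host gene. Snora44 (chr4:132309941-132310069, plus strand) and Snora61 (chr4:132310240-132310369, plus strand) lie within exons of transcripts of the lincRNA Snhg12, and their clusters covered the 5′ part, bases 2 to 64 of 129 and up to base 61 of 130. Of Scarna2 (414 bases, no annotated host gene), bases 101 to 255 are shown (chr3:108554497-108554651, minus strand), with the cluster at 141 to 215. Mir1839 (chr7:81529855-81529981, plus strand) is annotated as a scaRNA of 127 bases and also as a miRNA gene, and its cluster covered bases 105 to 124.

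The boxes were looked for on the gene's strand as the exact letters TGATGA within the first 22 bases together with CTGA within the last 22 bases, and ACA within the last 8 bases. Of the 71 C/D box genes with a cluster, 45 (63.4%) held the C and D box letters, against 0% of windows of the same length just upstream. Of the 37 H/ACA box genes with a cluster, 35 (94.6%) held ACA near the end, against 8.11% upstream. The shortest of the 37 had 71 bases, and 1 held the C and D box letters. The naming rule also placed Rnu73b, in an intron of Rps3a1, in this class. The H/ACA box values by name may therefore include a C/D box RNA. In Snord83b the C box letters stood at bases 10 to 15 and the last CTGA at 84 to 87 of 94, and the cluster shown, bases 2 to 9, is 1 of 4 abutting wild-type clusters with 57 IP reads each that together cover bases 2 to 63. In Snord14d they stood at 7 to 12 and 79 to 82 of 86, and the cluster shown lay between them. The other wild-type cluster of Snord14d reached to base 17 and covered the C box letters, with 13 IP and 12 input reads (log2 2.78). A match is a description of the letters and not a tested site.

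Detection differed between the classes. By gene symbol and gene type, 71 of 102 C/D box loci (69.6%), 37 of 41 H/ACA box loci (90.2%) and 15 of 48 scaRNA loci (31.2%) had a cluster in at least 1 library. Of the loci not classed by either, 125 of 1339 (9.34%) did. Of the 248 genes, 147 had a cluster in both libraries, 5 only in wild type and 96 only in the knockout-labelled library, whose IP was deeper. That library also had more clusters in all, 86106 against 46860. The same split over all genes was not counted, so these numbers are not read as particular to members. Where RefSeq product names were used for the loci not classed in this way, a choice made after the data had been seen, the order of C/D and H/ACA turned. Then 124 of 384 C/D box loci (32.3%), 96 of 754 H/ACA box loci (12.7%) and 15 of 48 scaRNA loci (31.2%) had a cluster. Of 344 loci that remained without a class, 13 (3.78%) did.

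Most C/D box clusters lay above input and most H/ACA box clusters below it, in both libraries. The log2 of IP over input given by the authors for each cluster had a median of 1.25 over 67 C/D box clusters in wild type and 1.76 over 120 in the knockout-labelled library, with 51 (76.1%) and 103 (85.8%) of them above 0. Over all clusters of the libraries, of which 98.2% and 89.6% lay above 0, the medians were higher, 4.25 and 2.26. The 37 and 62 H/ACA box clusters had medians of -0.32 and -0.53, with 14 and 19 above 0. ScaRNA clusters had medians of 0.86 (17 clusters) and 0.15 (42 clusters), and clusters of genes not classed by name 0.62 (91) and 0.90 (210). The scaRNA values rest on few genes: with 1 cluster per gene, the one with most IP reads, the medians were -0.60 (11 genes) and -0.71 (15 genes), on the other side of 0. With the RefSeq names added, C/D box clusters had medians of 1.34 and 1.79 and H/ACA box clusters -0.44 and -0.40.

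Set beside all clusters, members stood low in wild type. Of the 212 wild-type member clusters 128 (60.4%) lay above input, against 98.2% of all clusters of the library, and in the knockout-labelled library 281 of 434 (64.7%) did, against 89.6% of all. A cluster counted as enriched if both its -log10 p and its log2 were 3 or more. In wild type 16 member clusters in 10 genes were enriched, against 24.1% of all clusters, and in the knockout-labelled library 52 in 29 genes, against 3.08% of all. The members' medians over all their clusters were 0.63 and 0.81, below the 4.25 and 2.26 of all clusters. Among clusters with 20 or more IP and input reads together, the members' median was 0.20 (171 clusters) against 1.38 for all in wild type, and 0.63 (346 clusters) against 0.47 in the knockout-labelled library. At that limit 54.4% of members and 77.4% of all lay above input in wild type, and 64.5% and 63.0% in the knockout-labelled library. In wild type 12 of 171 members were then enriched, against 1141 of 3516 of all. The knockout-labelled library had 48 of 346 against 1195 of 8423, nearly the same share. Clusters of miRNA genes, which encode the usual cargo of AGO2, had median log2 values of 8.59 (623 clusters) and 6.49 (603 clusters). Regions of 1 gene are not independent, since 39 pairs of wild-type member clusters and 141 knockout-labelled pairs abut, and some share the same reads.

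**Figure D1:**
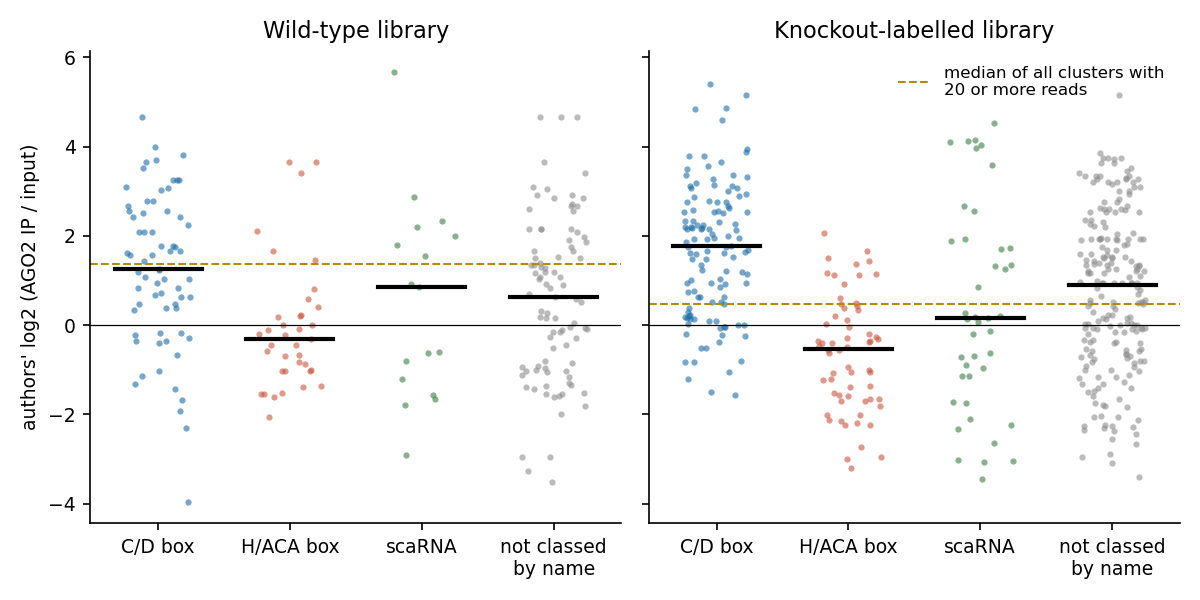
Each point is 1 called cluster in a snoRNA or scaRNA gene, plotted at the authors' log2 of AGO2 IP over input, by class, for the wild-type (left) and the knockout-labelled library (right). Black bars are class medians and the dashed line is the median of all clusters of that library with 20 or more reads (1.38 and 0.47). C/D box clusters sit mostly above 0 (medians 1.25 and 1.76) and H/ACA box clusters mostly below it (-0.32 and -0.53).

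The SNORD88 family is a small group of similar C/D box snoRNAs in 2410002F23Rik. All 4 of its loci had clusters in both libraries, with 5 of 7 clusters enriched in wild type against 7 of 7 in the knockout-labelled library. Snord88a had at least 495 IP and 240 input reads in wild type (log2 3.71, interval 3.48 to 3.94), and at least 2036 IP and 109 input reads in the knockout-labelled library (5.16, 4.88 to 5.45). Snord88c had 69 IP and 51 input reads in wild type (3.10, 2.56 to 3.65) and at least 1227 and 81 in the other library (4.86, 4.54 to 5.20). Gm23991, a SNORD88 copy by its RefSeq name, had 37 and 63 reads (1.90) and at least 1326 and 261 (3.28). In each of these 3 genes the log2 of IP over input, which takes depth into account, was above 0 in both libraries. The copies are similar in sequence, and how reads that match several places were assigned was not given in the sources used here.

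The SNORD14 genes, known as U14 and needed for cleavage and methylation of 18S rRNA precursors, were also above input. Snord14c had 22 IP and 17 input reads in wild type (log2 3.04, interval 2.06 to 4.04) and 246 and 47 in the knockout-labelled library (3.33, 2.87 to 3.81). Snord14d had 18 and 12 reads (3.25, 2.12 to 4.44) and 222 and 29 reads (3.88, 3.31 to 4.49). Snord14e was lower, with 8 and 24 reads (1.08) and 91 and 44 reads (1.99). For each of the 3 genes the intervals of both libraries overlap.

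C/D RNAs with roles other than methylation took different levels. Snord118 (U8), needed to process the 5.8S and 28S rRNA precursors, had at least 693 IP and 639 input reads in wild type (2.78, interval 2.62 to 2.94) and at least 2254 and 594 in its best-covered knockout-labelled cluster (2.86, 2.73 to 3.0). Snord13 (U13), which pairs with 18S rRNA for its acetylation and has no annotated host gene, had 145 and 302 reads (1.61, 1.31 to 1.90) and at least 2878 and 1214 reads (2.18, 2.09 to 2.28). Rnu3a, a U3 gene of the RNA that directs early cleavage of the 18S precursor, had at least 41 and 345 reads (-0.41, -0.91 to 0.06) and at least 135 and 337 reads (-0.38, -0.68 to -0.09). U8 and U13 were thus above input and U3 was not. Reads on mouse repeats were removed before mapping, per the labels' protocols, and how many of the reads of U3 or of other members that removed was not tested.

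Of the C/D box genes in ribosomal protein and growth-arrest host genes, Snord83b had 4 wild-type clusters with 57 IP reads each and 122 to 204 input reads. Its log2 ran from 1.57 (interval 1.09 to 2.03) at the 5′ end to 0.82 (0.37 to 1.25). The best-covered knockout-labelled cluster of Snord83b had at least 1596 and 526 reads (2.54, 2.40 to 2.69). Snord32a, in an intron of Rpl13a, had 87 and 161 reads (1.78, 1.38 to 2.16) and at least 1818 and 765 (2.19, 2.07 to 2.31). Snord47, in Gas5, had 24 wild-type IP reads (0.39, -0.31 to 1.03) and 289 and 81 reads (2.77, 2.41 to 3.15). The knockout-labelled value of Snord47 lies above its wild-type interval. Of the other named genes classed C/D box by symbol, so do those of Snord83b, Snord32a, Snord88a, Snord88c, Snord13, Snord34 and Snord22. Those of Snord14c, Snord14d, Snord118 and Rnu3a lie within it. Clusters of the libraries need not cover the same bases.

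Of the H/ACA box genes with most reads, several lay below input. Snora70 had at least 24 IP and 461 input reads in wild type (-1.60, interval -2.26 to -1.01) and at least 144 and 643 in the knockout-labelled library (-1.22, -1.49 to -0.96). Snora68 had at least 15 and 394 reads (-2.05, -2.90 to -1.31) and at least 31 and 176 (-1.57, -2.17 to -1.01). Snora65 had at least 17 and 282 reads (-1.39) and at least 38 and 293 (-2.01). In all 3 genes both intervals lay below 0.

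Snora61 was close to input in both libraries, with at least 33 and 224 reads (-0.10, interval -0.67 to 0.43) and 206 and 390 reads (0.02, -0.23 to 0.27). Its neighbour Snora44 had 12 and 51 reads (0.58, -0.47 to 1.5) and 60 and 76 reads (0.60, 0.09 to 1.11). Snora73a, the U17 RNA that acts in 18S rRNA processing, had at least 17 and 174 reads (-0.69) and at least 89 and 252 reads (-0.56). Both enriched H/ACA box clusters by name lay in Snora23 in wild type; they abut and each had 6 IP and 3 input reads (3.66). Snora41, chosen here as a gene above input, had 7 and 14 reads in wild type (1.66, 0.11 to 3.07) and 14 and 12 in the other library (1.16, -0.06 to 2.40).

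ScaRNA genes differed among themselves. Scarna2, which guides methylation of U2 snRNA, had 66 IP and 91 input reads in wild type (2.20, interval 1.72 to 2.67) and at least 1376 and 416 in the knockout-labelled library (2.67, 2.51 to 2.83). In the knockout-labelled library 5 further clusters of Scarna2, from base 264 to base 378, lay between 3.96 and 4.53. Scarna6 had 22 and 77 reads (0.86, 0.10 to 1.56) and 73 and 133 reads (0.07, -0.36 to 0.50), and Gm25395, which RefSeq also names scaRNA 6, had at least 16 and 349 reads (-1.78, -2.61 to -1.06) and at least 103 and 366 reads (-0.89, -1.22 to -0.57) in its best-covered clusters. Nearer its 5′ end Gm25395 lay above input, with 5 and 8 reads at bases 59 to 68 (1.99, 0.03 to 3.78) and 38 and 22 reads at bases 58 to 60 (1.73, 0.93 to 2.56). Scarna10 lay slightly below input in both (-0.60 and -0.71).

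Some members hold a miRNA. A miRNA gene overlapped 16 of the genes with a cluster, and 10 genes with a cluster hold a RefSeq mature miRNA; in 9 of these a cluster shared 10 or more bases with it. Mir1839 had the highest log2 in wild type, 5.66, from 8 IP reads and an input listed as 1, which may stand for 0 (interval 2.76 to 11.14), and 4.11 in the knockout-labelled library, from 9 reads and 1 (1.26 to 9.56). That cluster lay at bases 105 to 124 in wild type and 108 to 121 in the knockout-labelled library. It was outside mature miR-1839-5p at bases 65 to 86, the only mature sequence listed for this gene in the annotation used. Whether the cluster lies on the 3p arm of the miRNA was therefore not tested. The knockout-labelled cluster that covers the mature sequence, bases 28 to 95, had 7 IP and 12 input reads (0.16). Gm24148, which RefSeq's mir-3535 overlaps, had 16 and 14 reads (2.86, interval 1.73 to 4.0) in a wild-type cluster that covers mature miR-3535 at bases 1 to 26. In the knockout-labelled library the cluster on the mature sequence had 85 and 28 reads (2.54, 1.91 to 3.21), and the next one, outside it, 131 and 28 (3.17, 2.57 to 3.81).

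In Scarna3b, Snora34 and Mir3068 the wild-type cluster on the mature sequence was near or below input. Snord33's clusters shared 7 bases with miR-5121 in wild type (-0.36, interval -1.63 to 0.70, at least 8 and 65 reads) and 15 bases in the knockout-labelled library (0.64, 0.19 to 1.09, 78 and 96 reads). Scarna3b's cluster shared 19 bases with miR-1843a-5p in wild type, with at least 5 IP and 94 input reads (-1.57), and 20 bases in the knockout-labelled library, with at least 8 and 125 (-3.03). Snora34's cluster shared 22 bases with miR-1291 in wild type (0.23, 5 and 27 reads). Mir3068's cluster shared 18 bases with miR-3068-3p in wild type (-1.38, 4 and 66 reads), while its 5′ end in the knockout-labelled library, bases 1 to 7 and outside both mature arms, lay at 1.40 (106 and 77 reads).

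The SNORD116 copies, brain-expressed C/D box RNAs of the imprinted Prader-Willi region, had clusters at more loci in the knockout-labelled library than in wild type. So did members as a whole (243 against 152 genes), and that library had more clusters in all (86106 against 46860). The counts of this family are therefore not read as particular to it. By RefSeq name or symbol, 9 of 69 loci had clusters there (11 clusters, 4 enriched, median log2 3.10) and 1 locus had clusters in wild type (2 clusters, 0 enriched). Gm25615 had 58 IP and 13 input reads (3.10, interval 2.21 to 4.09) and Gm22851 had 20 and 4 (3.26, 1.68 to 5.27) in the knockout-labelled library, and neither had a wild-type cluster. Gm24264 had clusters in both, with 6 and 15 reads in wild type (1.34, -0.31 to 2.79) and 50 and 12 in the other library (3.0, 2.07 to 4.04). The 69 loci hold 26 different sequences, so the assignment of reads to a copy is uncertain. Of 131 SNORD115 loci, 1 had clusters in wild type (at most 4 IP reads) and 4 had clusters in the knockout-labelled library (at most 5). Whether the greater depth of the knockout-labelled IP sets these counts was not tested.

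Between the IPs, snoRNA and scaRNA regions were lower in wild type than in the knockout-labelled library. The comparison is the authors' deposited table, whose log2 is wild-type IP over knockout-labelled IP with a depth ratio of 2.28 taken out. Of its regions 46799 of 46862 are clusters of the wild-type file, and of the member regions 173 of 212. A region was counted as lower at a log2 of -1 or less and as higher at 1 or more, with 20 or more reads of both IPs together. Of 155 such member regions in 117 genes, 101 in 79 genes were lower, against 10.2% of all 3826 regions, 1 was higher, against 33.4% of all, and 53 lay between. The median was -1.40 for members, 0.38 for regions outside member and miRNA genes, 1.51 for miRNA genes (516 regions) and -0.67 for snRNA genes (17 regions). The interval lay wholly below 0 in 102 regions and wholly above 0 in 1. The other 57 member regions, in 45 genes, had under 20 reads and were not counted. This minimum left out regions above 0 more often than regions below 0. Of all 212 member regions 51 lay above 0 (median -1.12), against 14 of the 155 kept. Of all 46862 regions 93.8% lay above 0, against 66.1% of the 3826 kept. The counts of lower and higher regions and the medians above therefore hold only for regions with 20 or more reads. Members made up 25.9% of the 390 lower regions of the table, beside 155 of all 3826 regions with 20 or more reads. Member regions are not independent, since 34 pairs of them abut in this table.

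The classes differed in this comparison too. Taking the region with most reads of each gene, the median was -2.10 over 37 C/D box genes (31 lower, 2 above 0), -0.92 over 22 H/ACA box genes (10 lower, 4 above 0), -0.56 over 8 scaRNA genes (3 lower, 1 above 0) and -1.31 over 50 genes not classed by name (32 lower, 4 above 0). With the RefSeq names added the medians were -1.74 over 58 C/D box genes and -1.17 over 45 H/ACA box genes, a smaller gap. Centring on regions outside member and miRNA genes moves each log2 by 0.38 further down, to medians of -2.48 and -1.30 for C/D and H/ACA box genes by name.

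**Figure D2:**
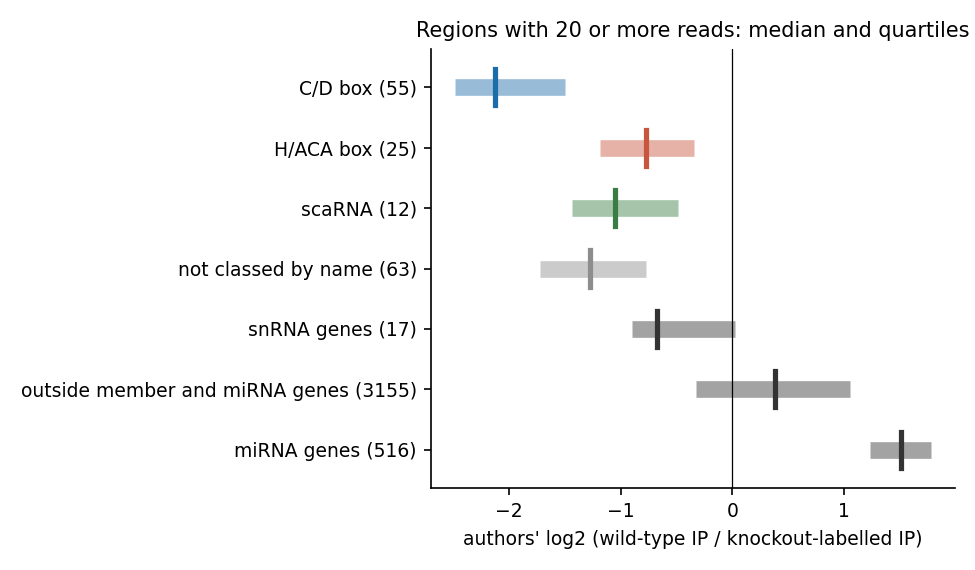
Median (line) and quartiles (bar) of the authors' log2 of wild-type IP over knockout-labelled IP, for regions with 20 or more reads in each class of snoRNA and scaRNA genes and in 3 other sets, with the number of regions in brackets. C/D box regions lie furthest below 0 (median -2.12), the other member classes and snRNA genes lie between, and miRNA genes lie above 0 (1.51).

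Snord83b had 57 wild-type and 794 knockout-labelled IP reads (log2 -2.61, interval -3.03 to -2.22) in the authors' deposited table. Snord88a had at least 495 and 6072 reads (-2.43, -2.56 to -2.30), Snord88c at least 69 and 889 (-2.50, -2.87 to -2.15), and Gm23991 37 and 443 (-2.39, -2.92 to -1.91). Snord14c had 22 and 247 reads (-2.30), Snord14d 18 and 223 (-2.44), and Snord47 24 and 290 (-2.41). These 7 genes are the named C/D box genes, Gm23991 included, with the lowest values.

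The other named C/D box genes ranged from -2.12 to -0.54. Snord13 had 145 and 1441 reads (-2.12, interval -2.38 to -1.88), Snord34, a further Rpl13a snoRNA, 18 and 148 (-1.85, -2.65 to -1.14), Snord32a 87 and 607 (-1.61, -1.96 to -1.29) and Snord22, the U22 RNA of 18S processing, 33 and 177 (-1.24). Snord118 had at least 693 and 3522 reads (-1.16, -1.28 to -1.04) and Rnu3a at least 41 and 136 (-0.54, -1.08 to -0.03). The intervals of Snord13 and Snord34 overlap that of Snord88a, and those of Snord32a, Snord22, Snord118 and Rnu3a do not.

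The lowest values rested on few wild-type reads. Snord111 had 3 wild-type and 98 knockout-labelled reads (-3.84, interval -6.14 to -2.25), Snord35b 3 and 71 (-3.38, -5.69 to -1.77) and Snord57 3 and 67 (-3.29, -5.61 to -1.68). These genes were picked as the lowest after their values were seen. The region that was higher lay in Gm23262, SNORD97 by its RefSeq name and in the host gene Eif4g2, with 56 wild-type and 61 knockout-labelled reads (1.06, 0.51 to 1.61).

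Among H/ACA box genes, Snora30 had at least 9 and 88 reads (-2.10, interval -3.28 to -1.11), Snora78 at least 8 and 55 (-1.59), Snora61 at least 33 and 207 (-1.46, -2.04 to -0.93), Snora68 at least 15 and 81 (-1.24) and Snora44 12 and 62 (-1.18, -2.21 to -0.28). Snora73a had at least 9 and 46 reads (-1.17), Snora70 at least 48 and 179 (-0.71, -1.20 to -0.24) and Snora65 at least 17 and 42 (-0.12, -1.02 to 0.73). The interval included 0 only for Snora65 of these 8 genes. Gm25777, SNORA77 by its RefSeq name and in an intron of Ranbp1, had at least 21 and 253 reads (-2.40, -3.12 to -1.76), a value in the range of the C/D box genes.

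Of the scaRNA genes, Scarna2 had 66 and 494 reads (-1.72, interval -2.11 to -1.34) and Scarna6 had 22 and 127 (-1.34, -2.07 to -0.68). Scarna10 (-0.64), Gm22442, named scaRNA 21 (-0.48), Gm25395 (-0.12) and Gm22009, named scaRNA 7 (0.04), had intervals that included 0 in the region with most reads. A second region was lower in Gm25395 (-1.88, -3.58 to -0.55, 5 and 42 reads) and in Gm22009 (-1.17, -2.47 to -0.06, 8 and 41 reads). Mir1839 had 8 and 10 reads (0.87, -0.68 to 2.36). Of the remaining named genes without a class by symbol, Gm22357 had 66 and 338 reads (-1.17), Gm23969 at least 55 and 292 (-1.22), Gm23927 20 and 107 (-1.23) and Gm24016, U54 by its RefSeq name, 19 and 79 (-0.87); all 4 intervals lay below 0. Gm23927, of 216 bases and with no RefSeq product, also had the second-highest wild-type value over input of the named genes (4.66, 20 and 5 reads; 3.35 in the knockout-labelled library, 106 and 20 reads).

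**Figure D3:**
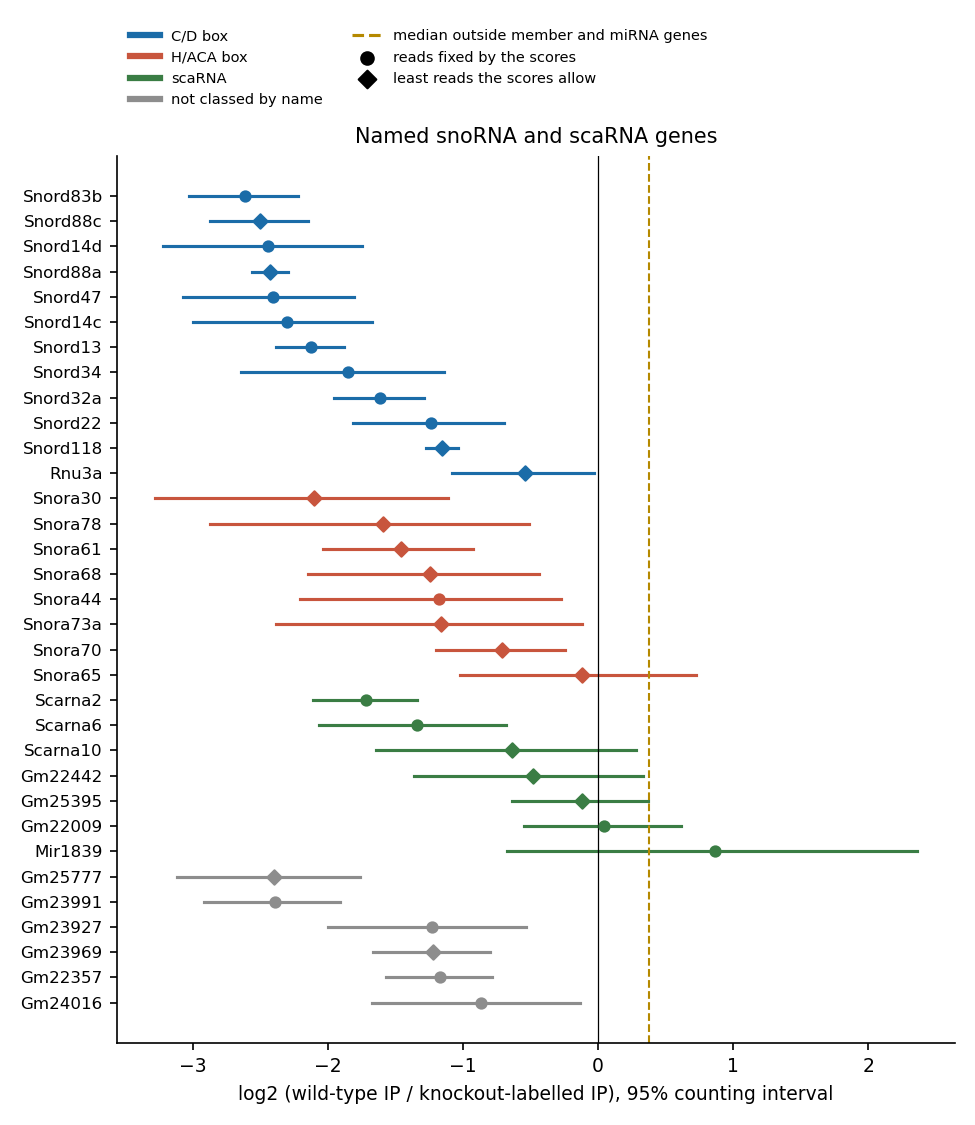
Log2 of wild-type IP over knockout-labelled IP, with its exact 95% counting interval, for the region with most reads of each of the 33 named genes, coloured by class; circles have reads fixed by the scores and diamonds the least reads the scores allow. The dashed line marks the median outside member and miRNA genes (0.38). All 12 C/D box genes lie below 0, from -2.61 (Snord83b) to -0.54 (Rnu3a), while Gm22009 (0.04) and Mir1839 (0.87) lie above it.

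The ratio of the inputs was inferred and not measured, since no file sets one input against the other. It was taken as the log2 between the IPs, less the wild-type log2 over input, plus the knockout-labelled log2 over input of the cluster with the largest overlap. These clusters can differ in length and overlap by as little as 1 base, so the inferred ratio holds only as far as the knockout-labelled log2 over input is alike along both stretches. At 143 places in 114 genes with a cluster in both libraries and 5 or more reads in each input, the median inferred log2 of wild-type over knockout-labelled input was -1.07, below 0 at 127 places, beside -1.34 for the IPs. At 3851 places outside member and miRNA genes the inferred input median was -1.21 and the IP median 0.29.

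The inferred medians of the classes lay closer together for the inputs than for the IPs. At 55 C/D box places in 40 genes the input median was -0.90 and the IP median -1.72. The IP value minus the input value had a median of -1.0, below 0 at 48 of 55. Places of 1 gene are not independent, since some share reads or the same knockout-labelled cluster. At 18 H/ACA box places in 17 genes the input median was -1.19, the IP median -0.76 and the median difference 0.29, below 0 at 6. At 11 scaRNA places in 7 genes the median difference was 0.26. Outside member and miRNA genes it was 1.43, below 0 at 299 of 3851 places. Where both clusters overlapped by at least 50% of each, the median difference was -0.96 at 32 C/D box places (28 below 0) and 0.07 at 11 H/ACA box places (5 below 0). This difference equals the wild-type log2 over input minus the knockout-labelled one, so it rests on the same values as the comparison with input above.

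**Figure D4:**
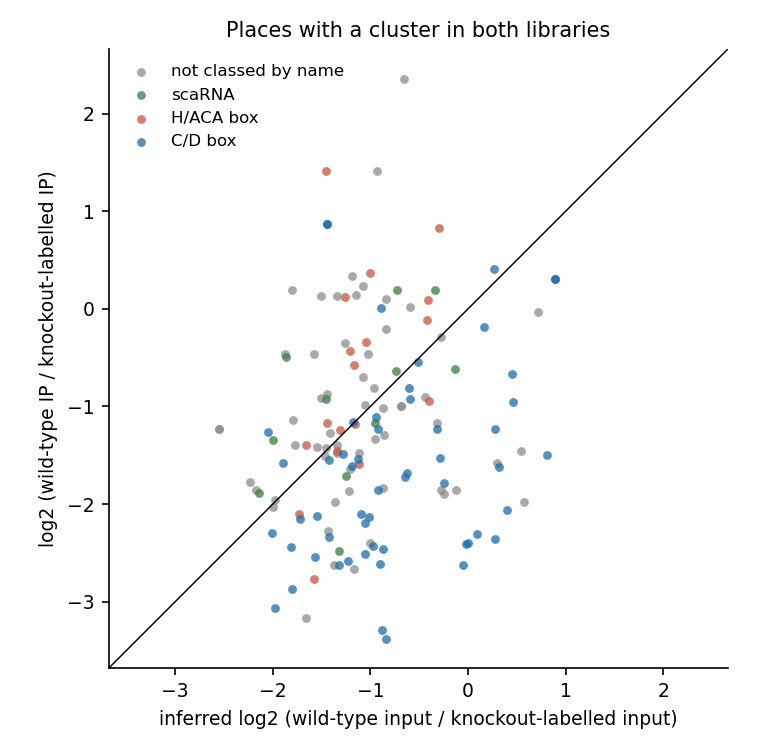
Each point is 1 place in a snoRNA or scaRNA gene with a cluster in both libraries (143 places), with the inferred log2 of wild-type over knockout-labelled input on the x axis and the log2 of the IPs on the y axis; the line marks equal ratios. Of 55 C/D box places (40 genes) 48 lie below the line, and of 18 H/ACA box places (17 genes) 6 do. Some places of 1 gene share reads or a cluster.

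AGO2 clusters lay at different places in C/D and H/ACA box genes. Each gene was divided into a 5′, a middle and a 3′ part of equal length. With 1 cluster per gene, its midpoint was in the middle part of 28 of 46 wild-type and 47 of 70 knockout-labelled C/D box genes with a cluster. In H/ACA box genes it was in the 5′ part in 17 of 29 and 20 of 36. The 3′ part held 4 of 46 and 7 of 70 C/D box clusters and 2 of 29 and 1 of 36 H/ACA box clusters. Median cluster lengths were 51 and 48.5 bases in C/D box genes of a median of 84.5 and 82 bases, and 52 and 49.5 bases in H/ACA box genes of 137 and 133.5 bases. A cluster of that length has little room to be centred elsewhere in a C/D box gene, and measured by the cluster's start most clusters of both classes lie in the 5′ part.

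**Figure D5:**
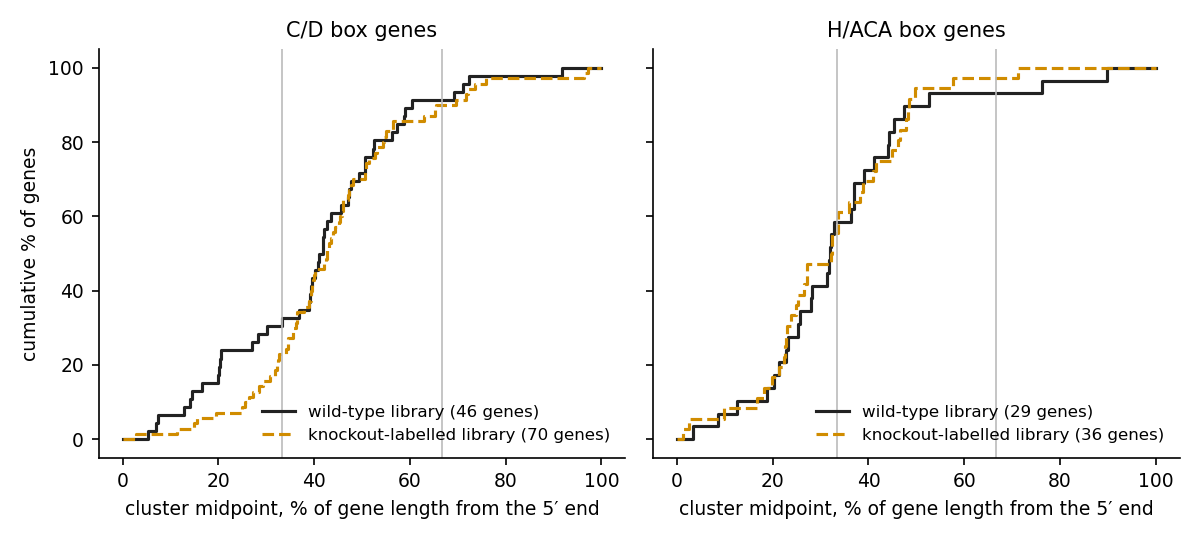
Cumulative share of genes (y axis, %) by the midpoint of their best-covered cluster along the gene (x axis, % of gene length from the 5′ end) in C/D box (left) and H/ACA box genes (right), for both libraries; grey lines mark the 3 parts. C/D box midpoints gather in the middle part (medians 41.4% and 42.7%) and H/ACA box midpoints nearer the 5′ end (32.0% and 32.2%), with few in the 3′ part.

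Most members lie in host genes. Of the 248 genes, 237 lie in 142 host genes, 120 of them protein coding: 135 in introns, 83 within an exon of some annotated transcript and 19 partly in an exon, and 11 have no host. Exonic regions of 25 host genes had 20 or more reads, with a median log2 between the IPs of -0.03 in the authors' deposited table. In 13 host genes with values for both, the median was -0.91 for the members and -0.34 for the host exons, and the member was the lower of both in 7 of 13. With 10 or more reads there were 19 such hosts, with medians of -0.93 for members and 0.28 for exons, and the member was lower in 12 of 19; the median of all host exons then turned to 0.45. In Ncl, which encodes nucleolin, the member gene value was -1.86 and that of 5 exonic regions 0.33, while in Dancr the member had -0.44 and the host exon -1.99. In Chd3 both were near each other, at -0.48 and -0.34. These differences were not tested.

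The proteins of the particles gave few reads. Of 25 listed genes for C/D and H/ACA proteins, assembly factors and Cajal body proteins, 24 were found in the annotation, 11 had a region in the authors' deposited table, and 3 had a region of 20 or more reads: Ncl (median 0.33 of 5 regions), Nolc1, the Cajal body and nucleolar chaperone gene (2.19), and Tgs1, the cap methylase gene for snRNAs and some snoRNAs (0.19). Of the 7 regions of these genes 1 was lower and 1 higher. Of the core protein genes, Nop56 had 8 regions in that table, Dkc1 1 and Nop10 1, all under 20 reads, and Fbl, Nop58, Gar1, Nhp2 and Snu13 had none, though Nop58 had 10 knockout-labelled clusters.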

How the data were processed

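AGO2 eCLIP of 2 IP and 2 input libraries was scored by the authors. Per the labels' protocols, Cutadapt 1.15 trimmed adapters, STAR 2.6.0c took out reads on mouse repeats and mapped the others to mm10, UMI tools (version given as 5.2) removed duplicates, CLIPper 1.4 found clusters in each IP, and a custom script set their reads against the input. For each cluster the deposited files hold a -log10 p made by the authors, with an upper limit of 400, and their deposited log2 of IP over input. How the table of the 2 IPs was made is not given in the sources used here; its deposited log2 is wild-type over knockout-labelled IP, as its recovered reads match those of the wild-type file.

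From these scores, reads were recovered as whole numbers whose ratio gives the log2 and whose exact binomial or Yates chi-square p gives the -log10 p (within 1%; a ratio was found for 99.99% of regions of each table, tested on simulated data). An input of 0 had been counted as 1. Where the -log10 p was 0 or 400, the least reads compatible with the scores of the region were used, written "at least" beside genes. Intervals there rest on those reads. In 2592 regions with a log2 below 0 between the IPs, least reads from the comparison and the wild-type scores together equalled the reads in 87.4%. Least reads at the limit of 400 and those of knockout-labelled clusters, which rest on a single ratio, were not checked. Snord88a had 2036 such reads at bases 5 to 66 of its knockout-labelled cluster. The comparison of the IPs gave at least 6072 at bases 5 to 26. Reads were recovered this way for 134, 257 and 122 member regions exactly and 78, 177 and 90 as least reads. Genes are GENCODE M21; 28 loci with 2 overlapping identifiers count once, and 1502 of 1502 gene sequences read from the genome equalled GENCODE's. Left out with the chr12 locus were 1, 3 and 1 regions. Class came from symbol and gene type. Named genes were the 12 C/D box, 8 H/ACA box, 6 scaRNA and 4 unclassed genes with most reads of both IPs (20 or more), up to 6 with an enriched cluster in both libraries (highest log2 in wild type), the 4 with most IP reads in each library, and Snord13 and Snord118; genes named outside this rule were chosen after their values were seen. The members, lists and rules were chosen with earlier results of these data known. Python 3.11.15, scipy 1.17.1, pandas 2.3.3 and pysam 0.24.0 were used.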

Additional observations from a re-analysis of the deposited data

Results flagged for a closer look

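At 1 of the 143 places called in both libraries, IP and input lay in opposite order with both intervals clear of 0. Snord87 was below input in wild type (log2 -1.68, interval -2.83 to -0.73, at least 9 IP and 183 input reads, bases 3 to 80) and above it in the knockout-labelled library (0.62, 0.09 to 1.15, 57 IP and 71 input reads, in a cluster at bases 3 to 52 and another at 53 to 80). The difference between the libraries was not tested, and there is 1 library per genotype.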

How the results depend on the processing

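No paired analysis was possible because each genotype has 1 IP and 1 input library, so no replicate could be left out or matched. Of 212 wild-type and 434 knockout-labelled member clusters, 3 and 10 were enriched with limits of 5 and 4 for -log10 p and log2. With a log2 limit of 1 they numbered 50 and 146. Shares over all clusters or regions at the changed limits of this section are not given here. The scaRNA median over input reversed to -0.62 in wild type with 20 or more reads, and with 1 cluster per gene to -0.60 (wild type) and -0.71 (knockout-labelled). Regions lower in the comparison of the IPs numbered 39 of 155 at a log2 of 2. Among those whose reads the scores fix they numbered 58 of 86, beside 101 of 155 in the main setting. Regions higher numbered 8 of 182 with 10 or more reads, 0 at a log2 of 2 and 0 after centring. The members' median in that table was -1.63 with 50 or more reads, -1.12 with no minimum and -1.78 after centring, and the class medians after centring were -2.48 (C/D box) and -1.30 (H/ACA box). By cluster start, the middle part held 10.9% and 17.1% of C/D box genes and the 5′ part 89.7% and 88.9% of H/ACA box genes, in wild type and the knockout-labelled library; over every cluster, the middle part held 46.7% of knockout-labelled C/D box clusters. The host exon median reversed to 0.45 with 10 or more reads. The cause of these changes was not tested, other than centring, which shifts every value by 0.38. Of the other settings, 60 planned and 14 added after the data had been seen left class values and counts within the limits used (the interval of the median or share, or 1.5 times the count).

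Library totals and replicates are not in the data used here. Members with few reads, mostly in wild type, have wide intervals, and copies with similar sequences share an uncertain assignment of reads. Of the member regions of the comparison, 173 of 212 are clusters of the wild-type file, and no gene with a cluster only in the knockout-labelled library has a region in it.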
